A study of Mus musculus with 21 samples.

Results

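The response of NMuMG cells, a mouse mammary gland epithelial cell line, to 2 h of transforming growth factor beta 1 (TGF-b1) was read in the RNA made during those 2 h. Of the 21 arrays of the series, 6 make up the comparison: 3 of newly made RNA from cells given 5 ng/ml TGF-b1 for 2 h and 3 of newly made RNA from control cells. Both groups carried 200 µM 4-thiouridine (4sU), a uridine analogue that enters RNA as it is transcribed, so any effect of 4sU itself was shared by TGF-b1 and control cells. The labelled fraction was captured through a mercury-based reagent, amplified over successive rounds of in vitro transcription and hybridised to Affymetrix mouse arrays. A further 6 arrays of total RNA, 3 from TGF-b1 cells and 3 from control cells, all with 4sU, served as the comparison for what is particular to newly made RNA, and the other 9 arrays of the series come from another cell line and were not used. The label that names the molecule reads total RNA on all arrays, and the enriched arrays were recognised from their titles. All 18193 genes with a named probe set were measured, each by the probe set with the highest mean value, and all values are on a log2 scale, so a difference of 1 stands for a doubling.

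TGF-b1 binds a receptor complex made of type II and type I kinases (Tgfbr2 and Tgfbr1). The type I kinase phosphorylates Smad2 and Smad3, which join Smad4, enter the nucleus and act on target genes together with partner transcription factors. Among the genes first switched on are inhibitors of the same pathway, and in mammary epithelium longer exposure leads to loss of cell junctions and a mesenchymal shape. RNA that carries 4sU reports synthesis during the labelling time, whereas total RNA also holds molecules made before it.

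The replicate arrays resembled each other closely: across genes, r was 0.991 to 0.996 within the TGF-b1 arrays, 0.988 to 0.994 within the control arrays and 0.982 to 0.990 between the groups (a description over genes, not a test). Newly made against total arrays gave r of 0.928 to 0.953. Of 14 epithelial marker genes 13 were measured and 5 (Krt8, Krt18, Krt7, Krt19 and Cdh1) lay in the top 25% of all genes, whereas all measured markers of leukocytes (7), endothelium (5) and adipocytes (2) lay below the median gene and none of them was called. Of the epithelial list 1 gene was called higher (Cldn4) and 2 lower (Krt19 and Ocln), and 4 genes lay below the median gene, Esrp1 (mean of 4.1 over 12 arrays) and Cldn7 (5.05) lowest. Of 7 basal markers 6 lay below it and 0 were called. The 8 fibroblast markers, 7 of them below the median gene, had a summed level of 9.28 to 10.37 (log2) on TGF-b1 arrays and 8.58 to 9.61 on control arrays. The Actb transcript, read from its 3′ end minus its 5′ end, gave 1.77, 2.91 and 2.1 on TGF-b1 arrays 1 to 3 and 2.14, 3.21 and 2.00 on control arrays 1 to 3, against 1.34 to 1.60 in total RNA, so array 2 had the largest 3′ excess in both newly made groups. Same-numbered TGF-b1 and control arrays also deviated together from their group means (r across genes of 0.73, 0.34 and 0.46), and a second fit with the array number as a block within each kind of RNA was also run and is given below as the fit with the block.

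In newly made RNA 1116 of 18193 genes were called (6.13%), 609 higher (3.35%) and 507 lower (2.79%) after TGF-b1, where called means an adjusted p under 0.05 in limma with Benjamini-Hochberg adjustment over all genes. The median change was 0.74 among genes called higher, −0.69 among genes called lower and −0.01 over all genes tested, and the median size of a change over all genes was 0.12. The 3 TGF-b1 arrays and 3 control arrays did not overlap for 601 of the genes called higher and 500 of those called lower, and over all genes the arrays were higher without overlap in 8.45% and lower without overlap in 9.05%. With the block 2320 genes were called (12.8%), 1121 higher (6.16%) and 1199 lower (6.59%), and these held all 609 and all 507. These shares over all genes, without and with the block, are what every list count below stands against. Leaving out each of the 12 arrays in turn kept 612 calls throughout, 344 higher and 268 lower. Counts fell the most without TGF-b1 array 2 for genes called higher (405) and without TGF-b1 array 3 (321) or control array 2 (322) for genes called lower. Of the called genes, 686 had a further probe set: it had the same sign for 628, was itself called with that sign for 273 and was called with the opposite sign for 0, with limma at the same threshold. A change named below without its next probe set is that of the highest probe set alone. Because the arrays hold bulk RNA, more RNA per cell cannot be told apart from more cells that make it.

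The promoters of 6 genes among those with large changes or a defined place in the pathway are shown for the motifs they hold, chosen after their values were seen and from the genes with a window in the table. They are RefSeq windows of build GRCm38.p6, from 250 bases before to 50 after an annotated start, written 5′ to 3′ on the gene's strand. Il11 and Lamb3 have 2 such windows each, of which only the first listed is shown. Capitals mark CAGAC, the short SMAD element, and TGANTCA, the AP-1 element, on either strand, and 0 bases fell in both motifs. Of all 32851 promoter windows 49.6% hold CAGAC and 7.81% hold TGANTCA, so a single CAGAC is a common feature. Il11, a cytokine of the gp130 family, has 2 CAGAC motifs (chr7:4782808-4783107, minus strand). Olr1, a receptor for oxidised LDL, has 2 CAGAC and 1 TGANTCA (chr6:129507116-129507415, minus strand). Lamb3, the beta chain of laminin-332, has 2 CAGAC (chr1:193301744-193302043, plus strand). Id3, a dominant-negative HLH protein, has 2 CAGAC (chr4:136143572-136143871, plus strand). Ccl20, a chemokine, has 0 of either (chr1:83116516-83116815, plus strand). Cyp3a13, a cytochrome P450, has 1 CAGAC and 2 TGANTCA (chr5:137921570-137921869, minus strand). The first 3 rose and the last 3 fell after TGF-b1, as given below with their values, and a match or its lack is a description of these letters only.
Il11: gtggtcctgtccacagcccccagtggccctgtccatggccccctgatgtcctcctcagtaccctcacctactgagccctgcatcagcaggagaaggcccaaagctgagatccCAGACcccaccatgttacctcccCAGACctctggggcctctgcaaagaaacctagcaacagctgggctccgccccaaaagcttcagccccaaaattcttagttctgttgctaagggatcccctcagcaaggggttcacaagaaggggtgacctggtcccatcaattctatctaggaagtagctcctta
Olr1: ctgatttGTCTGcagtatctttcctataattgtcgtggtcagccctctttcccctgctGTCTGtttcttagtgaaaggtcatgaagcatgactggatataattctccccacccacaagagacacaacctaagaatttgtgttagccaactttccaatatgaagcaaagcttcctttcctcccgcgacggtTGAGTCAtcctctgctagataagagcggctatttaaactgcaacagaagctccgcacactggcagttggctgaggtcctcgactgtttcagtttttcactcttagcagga
Lamb3: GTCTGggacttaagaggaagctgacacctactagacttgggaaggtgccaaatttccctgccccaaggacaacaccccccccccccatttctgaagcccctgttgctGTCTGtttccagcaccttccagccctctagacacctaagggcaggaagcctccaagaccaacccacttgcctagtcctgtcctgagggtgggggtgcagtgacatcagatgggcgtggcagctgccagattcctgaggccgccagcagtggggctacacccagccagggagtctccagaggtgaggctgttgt
Id3: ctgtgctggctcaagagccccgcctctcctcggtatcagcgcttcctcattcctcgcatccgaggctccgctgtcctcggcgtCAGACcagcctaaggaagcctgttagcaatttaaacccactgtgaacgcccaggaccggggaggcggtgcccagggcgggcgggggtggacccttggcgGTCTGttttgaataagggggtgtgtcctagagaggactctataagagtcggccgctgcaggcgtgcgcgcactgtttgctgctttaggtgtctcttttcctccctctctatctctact
Ccl20: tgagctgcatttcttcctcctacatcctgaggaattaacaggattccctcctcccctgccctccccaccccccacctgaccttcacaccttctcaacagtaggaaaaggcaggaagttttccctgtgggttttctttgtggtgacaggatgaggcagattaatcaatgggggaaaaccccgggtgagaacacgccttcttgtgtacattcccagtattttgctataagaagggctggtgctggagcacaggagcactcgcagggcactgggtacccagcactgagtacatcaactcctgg
Cyp3a13: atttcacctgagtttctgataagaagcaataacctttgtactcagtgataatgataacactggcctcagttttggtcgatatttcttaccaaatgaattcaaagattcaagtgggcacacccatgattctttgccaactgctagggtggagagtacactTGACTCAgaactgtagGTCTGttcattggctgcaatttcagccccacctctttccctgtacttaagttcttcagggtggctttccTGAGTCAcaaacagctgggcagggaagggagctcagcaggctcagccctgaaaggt

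The genes with the largest rises were a mixture of cytokine, transcription factor, ubiquitin ligase and matrix genes. Spsb1, a substrate adaptor of a ubiquitin ligase that targets the type II TGF-b receptor, was at 11.22, 11.44 and 11.19 on TGF-b1 arrays 1 to 3 and at 8.89, 8.96 and 8.67 on control arrays 1 to 3. The groups lay far apart relative to their spread, and Spsb1 rose by 2.45 ± 0.14 (SE; limma adjusted p = 5.28e-08). Nfatc2, which encodes a transcription factor switched on by calcineurin, was at 10.43, 10.86 and 10.41 on TGF-b1 arrays and at 7.65, 7.73 and 7.62 on control arrays. The control arrays differed by little and all TGF-b1 arrays lay above them, although the next probe set of Nfatc2 had a change of 0.24 (limma adjusted p = 0.557). Olr1 was at 8.62, 8.82 and 9.11 with TGF-b1 and at 6.14, 5.93 and 6.13 without. Il11 was at 10.54, 9.36 and 9.64 with TGF-b1 and at 7.94, 7.05 and 6.97 without, and array 1 was the highest in both groups. The Il11 groups did not overlap, and the change within each numbered pair was in the same direction.

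Tnfaip6, a secreted hyaluronan-binding protein, was at 5.85, 6.86 and 6.44 on TGF-b1 arrays and at 4.03, 4.09 and 4.03 on control arrays, a rise of 2.33 ± 0.21 (limma adjusted p = 3.66e-06). Its control values were among the low ones of the table and nearly equal. Egr2, a zinc-finger transcription factor of the immediate-early class, was at 7.87, 9.37 and 8.48 with TGF-b1 and at 5.92, 6.65 and 5.65 without. Array 2 was the highest in both Egr2 groups, which did not overlap, and the rise was 2.50 ± 0.36 (limma adjusted p = 0.000282), with 2.70 for its next probe set. Epb41l4b, a FERM-domain protein that links membrane and cytoskeleton, rose by 2.1 ± 0.11, Rnf19b, a RING-type ubiquitin ligase, by 1.97 ± 0.17, Pcolce2, an enhancer of procollagen processing, by 1.93 ± 0.13, and the Wnt ligand gene Wnt9a by 1.87 ± 0.17. The next probe sets of Epb41l4b and Wnt9a had changes of 0.10 and 0.03 (limma adjusted p = 0.836 and 0.971). Ctla2a, a cysteine protease inhibitor, rose by 2.07 ± 0.15 and its neighbour of similar sequence Ctla2b by 1.68 ± 0.15, and how far their probe sets share targets was not tested. Lce1f, Mab21l4 and Fam210b completed the 15 largest rises, of 2.95, 2.67 and 1.92.

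**Figure D1:**
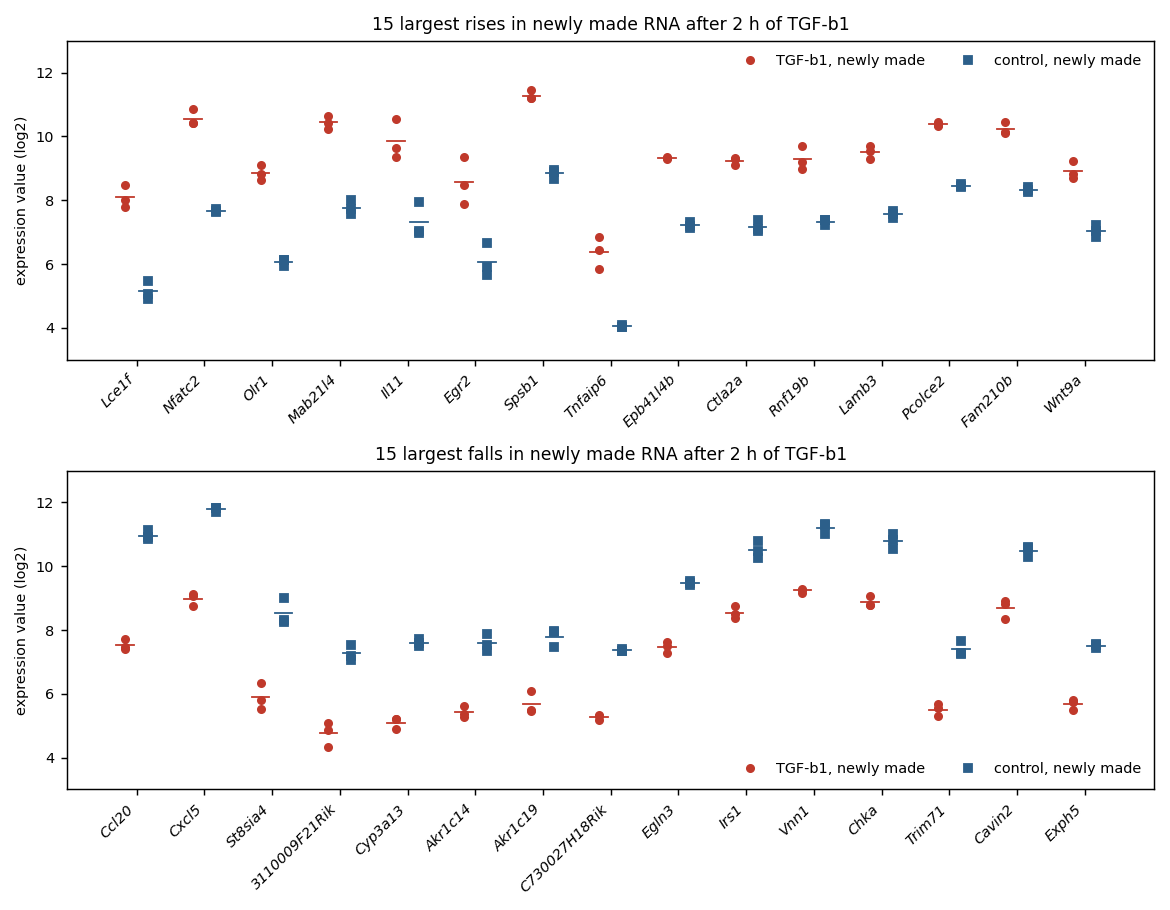
Expression values (log2) of the 15 genes with the largest rises (top) and the 15 with the largest falls (bottom) in newly made RNA, among those called with arrays that do not overlap. Red circles are the 3 TGF-b1 arrays and blue squares the 3 control arrays, with lines at the means. For every gene shown the TGF-b1 arrays lie on one side of the control arrays, and Il11 and Egr2 have the widest spread within groups among the rises.

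The largest falls included inflammatory signals, metabolic enzymes and membrane proteins. Ccl20, which attracts lymphocytes and dendritic cells through CCR6, was at 7.72, 7.40 and 7.48 on TGF-b1 arrays and at 11.14, 10.84 and 10.91 on control arrays. All TGF-b1 arrays lay far below all control arrays. Cxcl5, a neutrophil-attracting chemokine, was at 8.74, 9.08 and 9.13 with TGF-b1 and at 11.70, 11.81 and 11.84 without. St8sia4, which adds polysialic acid to the neural cell adhesion molecule, was at 6.35, 5.80 and 5.51 with TGF-b1 and at 9.01, 8.31 and 8.24 without, so it fell by 2.63 ± 0.27 (SE; limma adjusted p = 1.39e-05). Array 1 was the highest of both St8sia4 groups, which did not overlap, and the next probe set of St8sia4 had a change of 0.08 (limma adjusted p = 0.912). Irs1, the insulin receptor substrate, was at 8.38, 8.49 and 8.76 with TGF-b1 and at 10.48, 10.26 and 10.80 without. Its groups did not overlap. Chka, a choline kinase of phosphatidylcholine synthesis, fell by 1.91 ± 0.14, Trim71, an RNA-binding ubiquitin ligase, by 1.90 ± 0.15, Cavin2, a coat protein of caveolae, by 1.81 ± 0.17, and Exph5, a Rab27 effector, by 1.81 ± 0.14. Of the 15 largest rises and 15 largest falls, 14 genes had a further probe set. The next one was called in the same direction for 10 of them and was not called for Nfatc2, Epb41l4b, Wnt9a and St8sia4.

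Among ligands of the TGF-b family and the proteins that hold them latent, 5 of 20 measured members rose and 2 fell, with a median of 0.11, and with the block 8 rose and 3 fell. Tgfb3, a TGF-b ligand, was at 7.73, 8.93 and 8.71 on TGF-b1 arrays and at 6.68, 6.73 and 6.90 on control arrays. TGF-b1 array 1 was the lowest of its group, and all 3 lay above the control arrays, a rise of 1.69 ± 0.26 (limma adjusted p = 0.000537). The latent TGF-b binding protein genes, whose products anchor latent TGF-b to the matrix, rose together: Ltbp2 by 1.40 ± 0.18, Ltbp1 by 0.95 ± 0.14 and Ltbp3 by 0.86 ± 0.15. In total RNA these 3 genes had 0.47, 0.21 and 0.26 and were not called (limma adjusted p = 0.321, 0.79 and 0.683), while the differences between the kinds of RNA were not called either (limma adjusted p = 0.631, 0.658 and 1). Bmp4, a bone morphogenetic protein, was at 6.53, 6.59 and 6.51 with TGF-b1 and at 7.75, 7.65 and 7.94 without, so it fell by 1.23 ± 0.12 (limma adjusted p = 5.89e-06). Inhbb, the activin B subunit, fell by 1.26 ± 0.18, while its next probe set had a change of −0.15 (limma adjusted p = 0.7).

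Among the 14 receptors of the family 3 rose and 0 fell, against 3.35% and 2.79% of all genes. The type I receptor genes Acvr1 and Tgfbr1 rose by 1.38 ± 0.16 and 0.98 ± 0.16, and Bmpr2, the type II receptor for bone morphogenetic proteins, by 1.04 ± 0.15. Tgfbr1 was among the highest genes of the table, at 13.37, 13.25 and 13.19 on TGF-b1 arrays and at 12.43, 12.16 and 12.29 on control arrays. The Tgfbr1 groups did not overlap (limma adjusted p = 0.00117), and the next probe set of Tgfbr1 had a change of 1.13 that was not called (0.459). Tgfbr2, the type II receptor that binds TGF-b1, was at 9.92, 11.05 and 10.93 with TGF-b1 and at 10.96, 11.65 and 12.09 without. Its groups overlapped, but each TGF-b1 array lay below the control array of its number, and a change of −0.93 had a limma adjusted p of 0.0577 without the block and of 9.33e-06 with it. Tgfbr2 was also called lower with quantile normalization (0.0193) and without TGF-b1 array 2 (0.0402) or control array 1 (0.00455).

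The signalling SMAD genes changed little. Smad2 had a change of −0.18 ± 0.17 (limma adjusted p = 0.738) and Smad4 of 0.10 ± 0.12 (0.793). Smad3 was at 12.04, 11.92 and 11.75 on TGF-b1 arrays and at 11.63, 11.47 and 11.32 on control arrays, a rise of 0.43 ± 0.12 (limma adjusted p = 0.0399) that was lost when any of 9 of the 12 arrays was left out (adjusted p up to 0.157) and when all its probe sets were averaged (0.284). Smad3 was not called either with only the 6 arrays compared or with quantile normalization (limma adjusted p = 0.143 and 0.0936). The partner transcription factors Runx1, Jun and Foxo1 rose by 1.04 ± 0.20, 0.76 ± 0.12 and 0.73 ± 0.14, so that 4 of 18 SMADs and partners rose and 0 fell (6 and 0 with the block).

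Inhibitors of the pathway had the highest median of the lists examined, 0.45, against −0.01 over all genes. Of 16 measured members 7 rose and 0 fell, against the 3.35% of all genes that rose, and 9 rose with the block. Ldlrad4, a membrane protein that keeps SMADs from the receptor, was at 7.76, 8.02 and 8.17 on TGF-b1 arrays and at 5.88, 6.59 and 6.20 on control arrays. Its groups did not overlap, and the rise was 1.76 ± 0.17 (limma adjusted p = 7.37e-06). Pmepa1, a relative of Ldlrad4 with the same reported action, was at 12.16, 12.02 and 11.83 with TGF-b1 and at 11.04, 11.05 and 10.51 without. Smad7, the inhibitory SMAD, was at 11.60, 11.69 and 11.41 with TGF-b1 and at 10.51, 10.61 and 10.60 without. Each of these groups was clear of its counterpart, and Pmepa1 rose by 1.14 ± 0.15. The nuclear corepressor genes Ski and Skil rose by 1.06 ± 0.17 and 0.76 ± 0.12, and Smurf1, a ubiquitin ligase that acts on SMADs and receptors, by 0.75 ± 0.14. For Smurf1 the next probe set had a change of 0.33 that was not called (limma adjusted p = 0.154). Bambi, a pseudoreceptor, and Tgif1, a corepressor, had changes of 0.44 and 0.47 that were not called without the block (limma adjusted p = 0.124 and 0.41) and were called with it (0.00602 and 0.00893). Bambi was also called without control array 1 (0.0301) and Tgif1 without control array 3 (0.0388).

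Of 18 antagonists and target genes of bone morphogenetic proteins 2 rose and 2 fell. The counts were 1 and 1 without TGF-b1 array 2 or 3, while 1 fell without control array 2 and 4 fell without control array 1 or with the block. Id3 was at 7.80, 8.05 and 7.84 on TGF-b1 arrays and at 8.95, 9.47 and 9.37 on control arrays, with no overlap. Id2 fell by 0.63 ± 0.15 (limma adjusted p = 0.0194), a call lost without TGF-b1 array 3 (0.0989), TGF-b1 array 2 (0.0551) or control array 2 (0.0658), and Id1 had −0.44 ± 0.28 (0.533). Fstl3, a secreted inhibitor of activin, rose by 0.80 ± 0.14 (limma adjusted p = 0.00133).

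**Figure D2:**
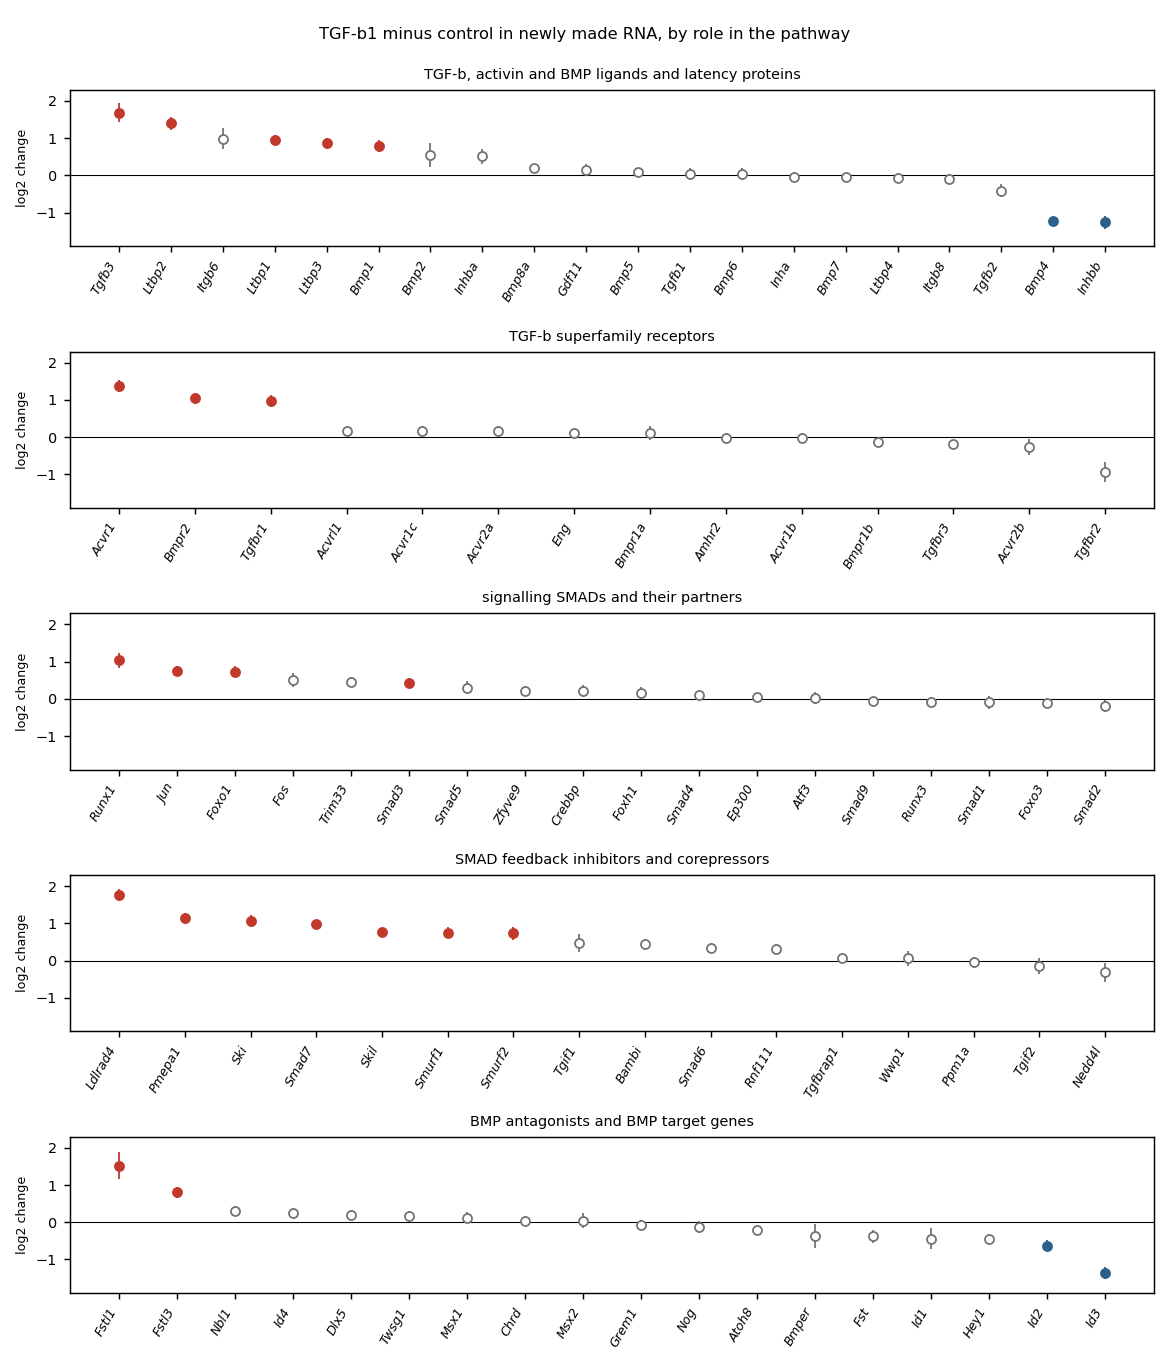
Change (TGF-b1 minus control in newly made RNA, log2) of every measured member of the TGF-b pathway lists, 1 panel per role, sorted by size, with standard errors from limma. Filled red points were called higher, filled blue points lower and open grey points were not called. Called rises outnumber called falls in each panel but the last, where Id2 and Id3 fell and 2 follistatin-like genes rose.

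Growth factor genes outside the TGF-b family changed in both directions. In the list of FGF, VEGF, PDGF and HGF ligands and receptors 7 of 32 rose and 3 fell (11 and 5 with the block), against 3.35% and 2.79% of all genes. Pdgfb, a platelet-derived growth factor chain, was at 11.34, 11.48 and 11.54 on TGF-b1 arrays and at 9.37, 9.76 and 9.97 on control arrays, a rise of 1.75 ± 0.15 (limma adjusted p = 2.86e-06). The other chain gene, Pdgfa, rose by 1.25 ± 0.13, Vegfa, the main angiogenic factor, by 1.11 ± 0.14, and its coreceptor gene Nrp2 by 1.28 ± 0.12. Fgf2, a fibroblast growth factor, was at 5.11, 6.23 and 5.90 with TGF-b1 and at 4.30, 4.24 and 3.91 without, and TGF-b1 array 1 was the lowest of its group. Fgfr2, a receptor for such factors, fell by 1.00 ± 0.15, while its next probe set had a change of −0.3 (limma adjusted p = 0.162). Among 40 Wnt genes 4 rose and 0 fell (8 and 1 with the block, and 1 fell without control array 1), with Wnt7a at 1.26 ± 0.15 and Wnt7b at 0.95 ± 0.17 beside Wnt9a. For Wnt7a and Wnt7b the next probe sets were not called, with changes of 0.09 and 0.37 (limma adjusted p = 0.899 and 0.27).

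Cytokine genes moved in both directions. Of 36 interleukins, gp130 cytokines and receptors 6 rose and 6 fell (11 and 6 with the block), against 3.35% and 2.79% of all genes. Il6, an inflammatory cytokine, was at 6.32, 7.65 and 7.22 on TGF-b1 arrays and at 4.69, 5.56 and 5.39 on control arrays. Array 1 was the lowest of both Il6 groups, which did not overlap, and the rise was 1.85 ± 0.26 (limma adjusted p = 0.000279). The receptor genes Cd40, Tnfrsf1b and Il1r1 rose by 1.04 ± 0.11, 0.98 ± 0.14 and 0.80 ± 0.12. Their next probe sets had changes of 1.25, −0.03 and 0.16 (limma adjusted p = 2.62e-05, 0.97 and 0.758). Il33, an alarmin held in the nucleus of epithelial cells, was at 7.94, 8.07 and 8.17 with TGF-b1 and at 9.52, 9.43 and 9.56 without. These groups were far apart, and Il33 fell by 1.44 ± 0.11 (limma adjusted p = 4.17e-07). Of 35 chemokines and receptors 5 fell and 1 rose (6 and 3 with the block), and 3 fell without TGF-b1 array 1 or 2 or control array 1 or 2. Beside Ccl20 and Cxcl5, Cxcl1 fell by 1.30 ± 0.11 and stayed at a high level, 11.68, 11.75 and 11.65 on TGF-b1 arrays and 12.98, 13.04 and 12.97 on control arrays. The gene that rose was Ackr3, an atypical receptor that takes up CXCL12 (1.22 ± 0.15).

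Guidance and contact signals were split: 4 of 43 ephrin, semaphorin, netrin and plexin genes rose and 4 fell, against 3.35% and 2.79% of all genes. These counts were 2 and 2 without control array 2. With the block they were 8 and 10, against 6.16% and 6.59% of all genes. Efna2, an ephrin, rose by 0.98 ± 0.14, and Sema3c, a secreted semaphorin, fell by 1.08 ± 0.14.

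Transcription factor genes other than SMADs changed in several families. Bhlhe40, a repressor with a bHLH domain, was at 10.74, 10.99 and 11.07 on TGF-b1 arrays and at 9.31, 9.18 and 9.78 on control arrays, without overlap. Nrip1, a corepressor of nuclear receptors, rose by 1.47 ± 0.13 (limma adjusted p = 2.57e-06). Of 30 forkhead genes 6 rose and 1 fell (9 and 2 with the block). The one that fell was Foxa2, a pioneer factor of endodermal epithelia, at 8.43, 8.20 and 8.02 with TGF-b1 and at 10.15, 9.96 and 9.54 without. Its groups did not overlap, and it fell by 1.67 ± 0.16 (limma adjusted p = 6.5e-06). Foxa3 and Foxf2 rose by 1.01 ± 0.16 and 0.87 ± 0.17, and the next probe set of Foxf2 had a change of 0.21 (limma adjusted p = 0.616). Foxq1 was at 10.64, 10.12 and 9.95 with TGF-b1 and at 9.72, 9.28 and 8.86 without, a rise of 0.95 ± 0.25 (limma adjusted p = 0.0292; 2.42e-06 with the block). Without control array 3 the Foxq1 call was lost (adjusted p = 0.13), as it was without control array 2 (0.0927), TGF-b1 array 1 (0.113) or TGF-b1 array 2 (0.0626), and with quantile normalization (0.0844). It was also lost with only the 6 arrays compared (limma adjusted p = 0.0628).

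Of 27 AP-1 and ATF genes 6 rose and 2 fell, and 1 fell without any single one of the TGF-b1 arrays or without control array 2 or 3. The count of rises was 11 with the block and 3 without TGF-b1 array 1, control array 2 or control array 3. Fosl2, a Fos-family subunit, was at 12.66, 12.67 and 12.67 on TGF-b1 arrays and at 11.94, 12.08 and 11.95 on control arrays, a rise of 0.68 ± 0.11 with almost no spread among TGF-b1 arrays. Its next probe set had a change of 0.17 that was not called (limma adjusted p = 0.543). Junb was at 10.21, 9.0 and 9.28 with TGF-b1 and at 9.38, 8.28 and 8.37 without. The Junb groups overlapped because array 1 was the highest in both, and the change of 0.82 was not called without the block (limma adjusted p = 0.116) and was called with it (6.28e-06) and without control array 1 (0.00507). Nfe2l2, the regulator of antioxidant and detoxification genes also called NRF2, was at 9.66, 10.22 and 10.20 with TGF-b1 and at 10.62, 11.10 and 11.35 without. It fell by 1.00 ± 0.19 (limma adjusted p = 0.00277), and Bach1, a repressor at the same DNA elements, rose by 0.63 ± 0.11 (0.0024). Klf10, a TGF-b-inducible Kruppel-like factor, rose by 0.63 ± 0.11, Klf3 fell by 0.82 ± 0.15, and Ets1 rose by 0.70 ± 0.14. Dbp, a clock-controlled PAR bZIP factor, fell by 1.26 ± 0.19, while its next probe set had a change of −0.03 (limma adjusted p = 0.973).

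Of the genes that define the epithelial to mesenchymal change, Cdh1, Vim, Fn1, Zeb1 and Snai1 were not called in newly made RNA in the fit without the block. By contrast 3 of 13 measured epithelial markers were called there. Cdh1, E-cadherin, was at 10.60, 10.49 and 10.24 on TGF-b1 arrays and at 10.57, 10.55 and 10.39 on control arrays, a change of −0.06 ± 0.14 (limma adjusted p = 0.922). Vim, vimentin, had −0.28 ± 0.24 (0.71) and Fn1, fibronectin, 0.34 ± 0.25 (0.622), both with overlapping groups. The repressor genes Zeb1 and Snai1 had changes of 0.60 ± 0.18 and 0.50 ± 0.17 (limma adjusted p = 0.0674 and 0.116) and were called with the block (0.000251 and 0.0262). The Snai1 groups did not overlap, and in total RNA Snai1 was called higher without the block (0.73, limma adjusted p = 0.0294). Zeb1 was also called with quantile normalization (0.0255), with median centring (0.0383), with averaged probe sets (0.0229) and without TGF-b1 array 1 (0.00483) or control array 3 (0.0431). Cldn4, a tight junction claudin, rose by 1.01 ± 0.21 (0.00681), and Krt19, a simple-epithelial keratin, fell by 1.09 ± 0.17 (0.000677). Ocln, the tight junction protein occludin, was at 6.82, 6.78 and 6.65 on TGF-b1 arrays and at 7.11, 7.24 and 7.30 on control arrays, so it fell by 0.46 ± 0.12 (limma adjusted p = 0.0322). The Ocln groups did not overlap, and the call was lost with only the 6 arrays compared (0.0694), with median centring (0.0505) and without TGF-b1 array 2 (0.0735) or 3 (0.144), control array 2 (0.105) or 3 (0.103), or TGF-b1 total array 1 (0.0501).

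Intracellular signalling genes included several early-response kinases and phosphatases. In the list of Socs, Spsb, Pim and related genes 8 of 33 rose and 3 fell (9 and 5 with the block), and 1 fell without TGF-b1 array 1 or 3 or control array 3. The closely related kinase genes Pim1 and Pim3 moved in opposite directions. Pim1 was at 10.59, 10.41 and 10.35 on TGF-b1 arrays and at 9.04, 8.70 and 8.63 on control arrays, a rise of 1.66 ± 0.14 (limma adjusted p = 2.57e-06). Pim3 was at 10.61, 11.05 and 10.54 with TGF-b1 and at 11.98, 12.27 and 11.76 without, so it fell by 1.27 ± 0.15 (limma adjusted p = 4.75e-05). Neither pair of groups overlapped, and the next probe sets of Pim1 and Pim3 had changes of 0.5 and −1.12 (limma adjusted p = 0.149 and 0.000618). Cish, a SOCS-family inhibitor of cytokine receptors, rose by 1.06 ± 0.11 and the pseudokinase gene Trib3 by 1.00 ± 0.13. Of 17 NFAT and calcineurin genes 5 rose and 0 fell, and 3 rose without TGF-b1 array 2 or 3, with Nfatc1 at 1.03 ± 0.19 beside Nfatc2. For Nfatc1 the next probe set had a change of 0.36 that was not called (limma adjusted p = 0.519).

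Among 29 Dusp phosphatases and Sprouty or Spred genes, which restrain MAP kinases, 5 rose and 3 fell, against 3.35% and 2.79% of all genes. The counts were 9 and 4 with the block, and 2 rose without control array 2. Spry1 fell by 1.37 ± 0.13 and Dusp1 by 0.73 ± 0.16, whereas Dusp2 and Dusp4 rose by 0.91 ± 0.13 and 0.82 ± 0.14. The mRNA decay genes Zfp36 and Zfp36l2, whose products bind the same AU-rich elements, also moved apart: Zfp36 fell by 0.92 ± 0.12 and Zfp36l2 rose by 1.03 ± 0.19. The next probe set of Zfp36l2 had a change of 0.25 that was not called (limma adjusted p = 0.392). Kdm6b, a histone H3K27 demethylase, was at 10.90, 10.41 and 10.30 with TGF-b1 and at 9.28, 9.14 and 8.72 without, a rise of 1.49 ± 0.17 (limma adjusted p = 4.28e-05). Tet2, a 5-methylcytosine dioxygenase, fell by 0.59 ± 0.13 (0.00888), while its next probe set had a change of −0.22 (limma adjusted p = 0.588).

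Several genes for attachment to the basement membrane rose. Among 25 integrin subunits 5 rose and 0 fell, and among 27 laminin, collagen and hemidesmosome genes 5 rose and 1 fell (8 and 1 of the integrins and 8 and 2 of the others with the block). Lamb3 was at 9.70, 9.30 and 9.54 on TGF-b1 arrays and at 7.43, 7.58 and 7.67 on control arrays. The lowest TGF-b1 array lay well above the highest control array, and the rise was 1.95 ± 0.17 (limma adjusted p = 2.57e-06). Col7a1, the anchoring fibril collagen, was at 8.51, 8.52 and 8.65 with TGF-b1 and at 7.07, 7.27 and 7.23 without, a rise of 1.38 ± 0.12 (2.62e-06). Itgb4, the hemidesmosomal integrin subunit that binds laminin-332, and Dst, which ties hemidesmosomes to keratin, rose by 1.06 ± 0.14 and 0.69 ± 0.12. The gene for the integrin subunit beta 3, Itgb3, rose by 1.41 ± 0.20 and that for the fibronectin receptor subunit Itga5 by 0.79 ± 0.15. The cytoskeletal genes Pdlim7 and Zyx rose by 0.74 ± 0.13 and 0.68 ± 0.12, and Ezr, ezrin, fell by 0.84 ± 0.11. For Itgb3 and Ezr the next probe sets had changes of 0.06 and −0.01 (limma adjusted p = 0.929 and 0.993). Those of Dst, Itga5, Pdlim7 and Zyx were not called either. Their changes were 0.4, 1.06, 0.32 and 0.2 (limma adjusted p = 0.0633, 0.132, 0.303 and 0.693). Beside the genes of this paragraph stand the summed fibroblast markers given above, whose ranges on TGF-b1 and control arrays overlapped. Col1a1, at 0.79 ± 0.16 (limma adjusted p = 0.00663; 0.0516 when its probe sets were averaged), was the 1 marker called, and Pdgfrb at 1.28 ± 0.55 (0.245; 3.28e-08 with the block) had overlapping groups. Their part in these results was not tested.

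Enzymes that build the cell surface and matrix polysaccharides rose in 9 of 42 cases and fell in 1, against 3.35% and 2.79% of all genes. With the block the counts were 13 and 2, and leaving out 1 of the 6 arrays gave 6 to 9 rises. Has3, a hyaluronan synthase, was at 6.36, 6.81 and 6.74 on TGF-b1 arrays and at 4.99, 5.32 and 5.31 on control arrays, a rise of 1.43 ± 0.14 (limma adjusted p = 1.07e-05). Without overlap as well, the heparan sulfate proteoglycan genes Sdc3 and Gpc1 rose by 1.15 ± 0.18 and 0.72 ± 0.12. Hs3st3a1, a heparan sulfate sulfotransferase, rose by 1.06 ± 0.13, and the N-glycan enzyme genes Mgat4a and B4galt1 by 1.02 ± 0.13 and 0.85 ± 0.11. For Sdc3 and Mgat4a the next probe sets had changes of 0.03 and −0.06 (limma adjusted p = 0.969 and 0.916). Of 54 proteases and inhibitors 5 rose and 4 fell (11 and 8 with the block), with Prss22, a serine protease, at 1.29 ± 0.16. Mmp13, a collagenase, was at 6.99, 7.68 and 7.49 with TGF-b1 and at 8.60, 9.23 and 9.40 without. These groups did not overlap, and Mmp13 fell by 1.69 ± 0.24 (limma adjusted p = 0.000324).

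**Figure D3:**
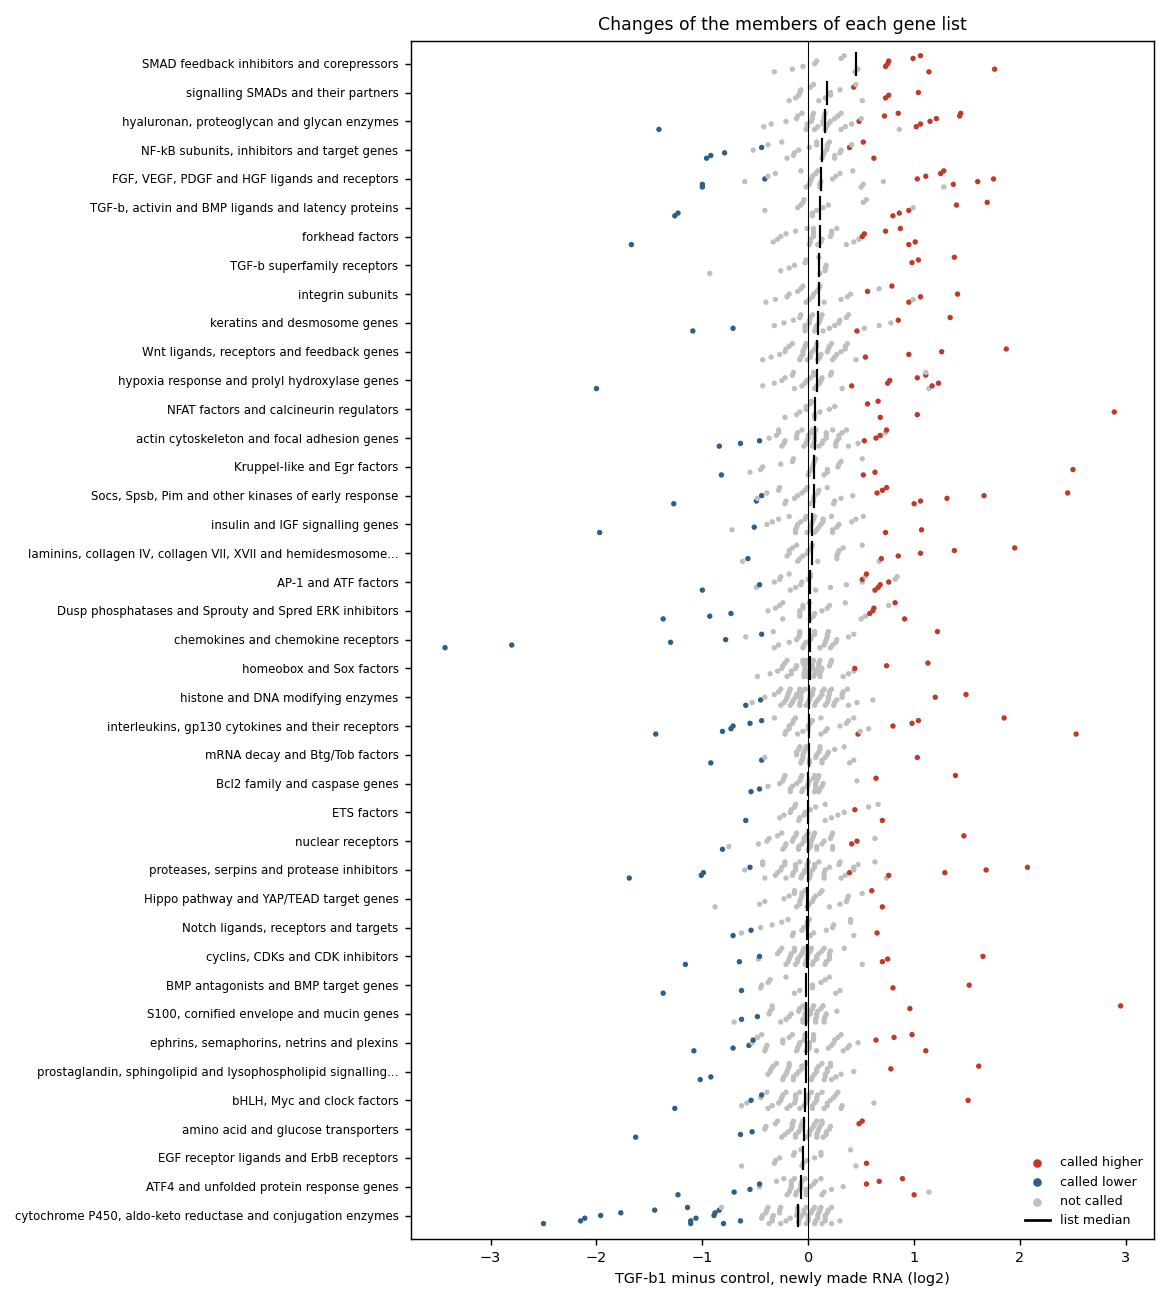
Change (TGF-b1 minus control in newly made RNA, log2) of the measured members of each gene list, sorted by the list median (black tick), with members called higher in red, called lower in blue and not called in grey. SMAD feedback inhibitors have the highest median, 0.45, and the cytochrome P450, aldo-keto reductase and conjugation list, which has 0 called rises, the lowest, −0.10. A member may stand in more than 1 list.

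Those enzymes of xenobiotic, steroid and retinoid metabolism that were called moved in a single direction. Of 65 measured cytochrome P450, aldo-keto reductase and conjugation genes 15 fell and 0 rose, against 2.79% and 3.35% of all genes, and 22 fell and 0 rose with the block. Leaving out 1 of the 6 arrays gave 12 to 17 falls. This list was chosen with earlier results of these data known and also holds a pantetheinase gene, Vnn1, so its counts are a description. Cyp3a13 was at 4.89, 5.20 and 5.21 on TGF-b1 arrays and at 7.59, 7.49 and 7.72 on control arrays. Vnn1, a pantetheinase, was at 9.30, 9.26 and 9.17 with TGF-b1 and at 11, 11.33 and 11.29 without. For both genes the arrays of a group lay close together and the groups far apart. Akr1c14, a hydroxysteroid dehydrogenase, was at 5.38, 5.27 and 5.63 with TGF-b1 and at 7.33, 7.53 and 7.87 without. Akr1c19 was at 5.45, 6.10 and 5.49 with TGF-b1 and at 7.46, 7.97 and 7.94 without. The Akr1c genes are neighbours of similar sequence, and how far their probe sets share targets was not tested. Ugt2b34, a glucuronosyltransferase, fell by 1.77 ± 0.16 (limma adjusted p = 3.06e-06), and Aldh1a1, which makes retinoic acid, by 1.45 ± 0.13 (3.24e-06). The median over the list was −0.10, against −0.01 over all genes, with 44 members below 0 and 21 above. The called falls thus lay in a part of the list, 15 of 65 members.

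In total RNA 1 of those 65 genes fell and 0 rose, where 452 of all genes were called (2.48%), 266 higher (1.46%) and 186 lower (1.02%). The 15 genes had changes of −0.64 to −2.50 in newly made and −0.16 to −0.62 in total RNA. The effect in newly made minus that in total RNA, tested as an interaction over all 12 arrays, was called for 12 of 18193 genes (0.066%), 2 with a positive (0.011%) and 10 with a negative difference (0.055%). Of these, 5 were members of the list, Vnn1 among them, and the list was chosen with earlier results known. Cyp3a13 had total RNA values of 6.97, 6.87 and 6.54 with TGF-b1 and 7.43, 7.44 and 7.37 without, and the difference in effect was −1.88 ± 0.19 (limma adjusted p = 0.000274). Vnn1 had total RNA values of 12.22, 12.11 and 12.02 with TGF-b1 and 12.36, 12.20 and 12.40 without, which overlapped, and the difference was −1.75 ± 0.17 (0.000274). For Vnn1 the total RNA arrays thus lay close together while the newly made arrays were far apart. The differences were −1.73 for Akr1c14 and for Akr1c19 and −1.21 for Aldh1a1 (limma adjusted p = 0.0171 each). These 3 calls were lost without some single arrays, with adjusted p up to 0.0913 without control total array 2 for Akr1c14, 0.0753 without TGF-b1 total array 2 for Akr1c19 and 0.0798 without TGF-b1 total array 1 for Aldh1a1.

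Outside that list the interaction was called for Ccl20 (−1.55 ± 0.21; limma adjusted p = 0.00757), Egln3, a prolyl hydroxylase that marks hypoxia-inducible factor for destruction (−1.26 ± 0.17; 0.00757), Il33 (−1.0 ± 0.15; 0.0171), the unnamed transcript 3110009F21Rik (−1.55 ± 0.25; 0.0235) and Tspan8, a tetraspanin named here after its values were seen (−1.14 ± 0.18; 0.0171). Each of these fell more in newly made RNA. The rises of Ctla2a and Epb41l4b exceeded those in total RNA by 1.34 ± 0.21 and 1.01 ± 0.15 (limma adjusted p = 0.0171 each). Of the 12 genes, Cyp3a13, Vnn1 and Ccl20 kept the interaction call under every alternative run. Of the 15 largest rises all 15 were also called higher in total RNA, by 0.73 to 3.49. Some were of similar size in both: Nfatc2 had 2.89 in newly made and 2.85 in total RNA, Spsb1 2.45 and 2.83, and Lce1f 2.95 and 3.49. Others were smaller in total RNA: Tnfaip6 had 2.33 and 1.00, Lamb3 1.95 and 0.83, and Pcolce2 1.93 and 0.97. The differences for these last 3 genes, 1.33, 1.12 and 0.96, were not called (limma adjusted p = 0.23, 0.165 and 0.116). Smad7, outside the 15, had 0.99 and 1.25. Of the 609 genes called higher in newly made RNA 246 were also called higher in total RNA, and of the 507 called lower 146 were called lower in both. With the block within each kind of RNA the interaction was called for 86 genes (0.473%), 34 with a positive (0.187%) and 52 with a negative difference (0.286%).

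**Figure D4:**
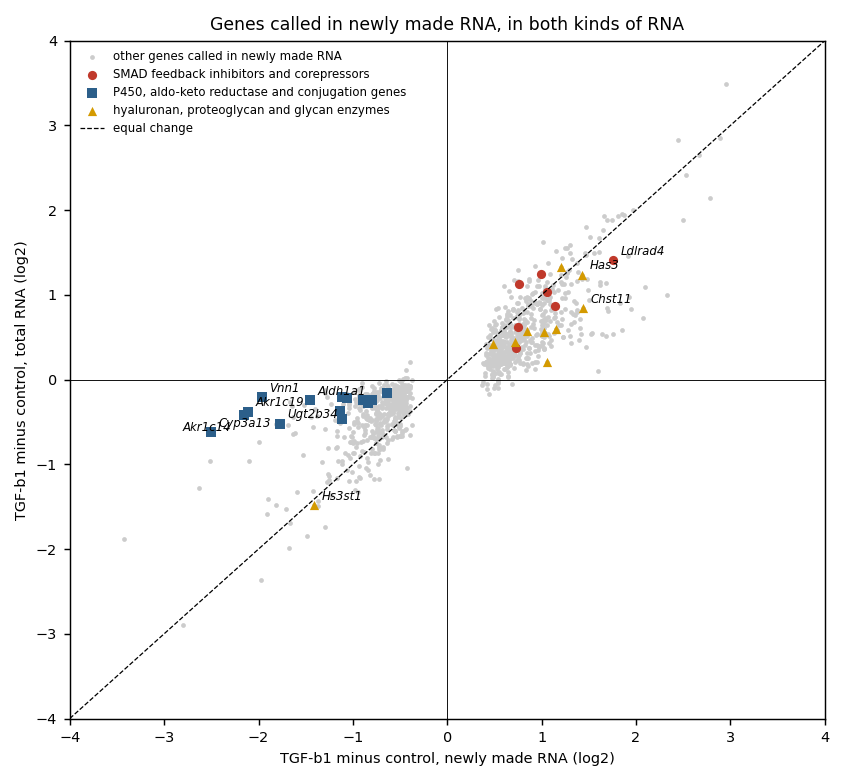
Change with TGF-b1 in newly made RNA (x axis, log2) against the change in total RNA (y axis, log2) for the 1116 genes called in newly made RNA, with the dashed line at equal changes. Blue squares are the cytochrome P450, aldo-keto reductase and conjugation genes, which lie between −0.64 and −2.50 on the x axis and between −0.16 and −0.62 on the y axis. Red circles are SMAD feedback inhibitors and yellow triangles hyaluronan, proteoglycan and glycan enzymes.

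Sugar and oxygen metabolism genes changed in both directions. Of 31 hypoxia response genes 7 rose and 1 fell (9 and 2 with the block, and 2 fell without control array 3). The glycolytic genes Hk2 and Pfkfb4 rose by 1.17 ± 0.15 and 1.23 ± 0.19, Ankrd37, a hypoxia-inducible gene, by 0.77 ± 0.13, and Plod2, a collagen lysyl hydroxylase, by 1.03 ± 0.19. The one that fell was Egln3, at 7.51, 7.62 and 7.29 on TGF-b1 arrays and at 9.41, 9.53 and 9.47 on control arrays, with groups far apart. Slc2a2, a glucose transporter, was at 6.59, 6.96 and 6.38 with TGF-b1 and at 8.14, 8.20 and 8.48 without, so it fell by 1.63 ± 0.14 (limma adjusted p = 2.57e-06). Of 37 genes of the ATF4 and unfolded protein response 4 rose and 4 fell (5 and 5 with the block), and 2 fell without TGF-b1 array 3 or control array 2. Xbp1, a transcription factor of that response, rose by 0.67 ± 0.12, while Cth and Psat1, enzymes of cysteine and serine synthesis, fell by 1.23 ± 0.14 and 0.70 ± 0.12.

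Growth regulators likewise changed in both directions. Of 46 cyclin, CDK and CDK inhibitor genes 3 rose and 3 fell, against 3.35% and 2.79% of all genes. With the block 4 rose and 4 fell, against 6.16% and 6.59% of all genes. Without the block, 1 fell when TGF-b1 array 2 or 3 was left out. Gadd45a, a stress-induced growth arrest gene, was at 9.17, 8.62 and 8.83 on TGF-b1 arrays and at 7.46, 7.18 and 7.04 on control arrays, a rise of 1.65 ± 0.19 (limma adjusted p = 4.3e-05). Ccng2, a cyclin of arrested cells, rose by 0.75 ± 0.13, while its next probe set had a change of 0.45 (limma adjusted p = 0.426). Ccnd2, a D-type cyclin that drives entry into S phase, was at 11.57, 11.47 and 11.34 with TGF-b1 and at 12.79, 12.57 and 12.49 without, so it fell by 1.16 ± 0.13 (limma adjusted p = 4.03e-05). Of 41 lipid mediator genes 2 rose and 2 fell (2 and 5 with the block), against the same shares of all genes. Sphk1, a sphingosine kinase, rose by 1.61 ± 0.16, whereas Sgpp2, a phosphatase that removes its product, and Lpar2, a receptor for lysophosphatidic acid, fell by 0.92 ± 0.16 and 1.02 ± 0.11. For Lpar2 the next probe set had a change of −0.24 that was not called (limma adjusted p = 0.283).

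The counts of the remaining lists follow, and each pair is followed by the pair with the block. They stand against 3.35% of all genes called higher and 2.79% lower, and 6.16% and 6.59% with the block. Among signalling families, 1 of 16 EGF family genes rose and 0 fell (3 and 1 with the block), 1 of 23 Notch genes rose and 2 fell (4 and 4), and 3 of 29 NF-kB genes rose and 4 fell (4 and 6). Among transcription factors, 3 of 24 Kruppel-like and Egr genes rose and 1 fell (4 and 4), 2 of 22 ETS genes rose and 1 fell (5 and 1), and 3 of 41 nuclear receptor genes rose and 1 fell (4 and 5). Of 48 homeobox and Sox genes 3 rose and 0 fell (4 and 2), and of 46 genes in the list of bHLH and clock factors 1 rose and 3 fell (2 and 9). Of 29 Hippo genes 2 rose and 0 fell (5 and 3), and of 31 mRNA decay genes 1 rose and 2 fell (4 and 3). Of 61 histone and DNA modifying enzymes 2 rose and 2 fell (7 and 3), of 49 actin and focal adhesion genes 4 rose and 3 fell (8 and 4), and of 34 keratin and desmosome genes 3 rose and 2 fell (7 and 3). Of 42 transporters 2 rose and 3 fell (2 and 5), of 37 insulin pathway genes 2 rose and 2 fell (3 and 5), and of 35 Bcl2 and caspase genes 2 rose and 2 fell (3 and 3). Of 42 S100, cornified envelope and mucin genes 2 rose and 2 fell (2 and 7). Leaving out 1 of the 6 arrays moved single counts in this paragraph by up to 3, so they are given as counts only.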

How the data were processed

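The groups, alternatives, gene lists and named genes were chosen with earlier results of these data known. Labelling with 200 µM 4sU for 2 h, enrichment and amplification are given as the labels' protocols have them. The authors summarised and deposited 1 log2 value per probe set. That the values are log2 was inferred from their range, 2.34 to 14.85, as no label names the scale. The submitters' processing notes list affy 1.18.2, and the background correction and normalization were not given in the sources used here.

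Of 45101 probe sets 34945 had 1 gene symbol in the platform's annotation, and the one with the highest mean over the 12 NMuMG arrays stood for each of 18193 genes. One linear model (lmFit and eBayes of limma 3.58.1, R 4.3.3) held 4 group means over 12 arrays, and TGF-b1 minus control in newly made RNA, the same in total RNA and their difference were tested, two-sided, with Benjamini-Hochberg adjustment over all genes. A value after ± is the standard error of a log2 change. Calls were made where the adjusted p was under 0.05. The fit was tested on simulated data with independent arrays, so that test does not bear on the pairing described below. With 3 arrays per group, their number limits the precision. The labels do not say that replicates came from separate cultures beyond calling them biological replicates.

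Same-numbered TGF-b1 and control arrays deviated together (r of 0.73, 0.34 and 0.46 in newly made and 0.41, 0.12 and 0.21 in total RNA), all above 0.1. A second fit therefore took the numbers as pairs, with a replicate block within each kind of RNA. Calls and adjusted p given without mention of the block come from fits that ignore this pairing. Newly made and total arrays of 1 number had r of 0.01 to 0.31 and were not taken as pairs.

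The 47 gene lists held 1450 genes, of which 1374 were measured. A further list is not reported here. Genes named in the text were a fixed set of pathway genes, the 15 largest rises and 15 largest falls among called genes whose arrays did not overlap, up to 6 called members per list with the smallest p, and the interaction genes with the most negative and most positive differences. Unnamed transcripts could be passed over. The genes Tspan8 and Nudt6 were named after their values were seen. A share of called genes with a motif was not given, because 78.3% of genes called higher had a promoter in the table, under the 80% set as a minimum.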

Additional observations from a re-analysis of the deposited data

Results flagged for a closer look

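The effect of TGF-b1 in newly made minus that in total RNA was called for 12 genes, all described above, and these are the genes whose effects differed between the kinds of RNA in a test of the difference. The differences (log2) were −1.88 for Cyp3a13, −1.75 for Vnn1, −1.73 for Akr1c14, −1.73 for Akr1c19, −1.55 for Ccl20, −1.55 for 3110009F21Rik, −1.26 for Egln3, −1.21 for Aldh1a1, −1.14 for Tspan8 and −1.0 for Il33, and 1.34 for Ctla2a and 1.01 for Epb41l4b. The largest limma adjusted p over all alternatives was 0.00247 for Cyp3a13 and for Vnn1 and 0.0368 for Ccl20. It was 1 for Epb41l4b and 0.0988 for Egln3, both when all probe sets of the gene were averaged, 0.0924 for Tspan8, 0.0798 for Il33 and for Ctla2a, all 3 without TGF-b1 total array 1, and 0.108 for 3110009F21Rik without the same array.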

How the results depend on the processing

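In newly made RNA 1116 genes were called, 680 (373 higher and 307 lower) with only the 6 arrays compared, 2320 (1121 and 1199) with the replicate block within each kind of RNA, and 758 to 1288 (405 to 627 higher and 321 to 723 lower) when 1 of the 12 arrays was left out. The replicate block over all arrays gave 767 lower. In total RNA 452 genes were called, 701 with the replicate block over all arrays, 1025 with the block within each kind of RNA and 308 to 524 when 1 array was left out. The interaction was called for 12 genes, 39 and 86 with the 2 blocks, 21 with quantile normalization and 4 to 20 when 1 array was left out. Median centring, a level filter, averaged probe sets and a variance trend kept each of these counts within 1.5 times. Of the changes named, 3 that were not called changed sign: Smad2 had −0.32 to 0.01, Cdh1 −0.14 to 0.04 and Vim −0.55 to 0.00 over the fits without 1 array, with the positive values without control array 3, TGF-b1 array 3 and TGF-b1 array 1. The replicate block within each kind of RNA added the calls of Bambi, Tgif1, Tgfbr2, Junb, Snai1, Zeb1 and Pdgfrb, given above, and of Krt7, whose change of 0.78 had a limma adjusted p of 0.0955 without it and of 3.39e-05 with it. It changed no other call of a named gene. The causes were not tested. How far signal over background limits the low values could not be read, since present calls were not used here.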

Other observations

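Fgf2 and Nudt6 overlap by 5125 bases on opposite strands in RefSeq's annotation of build GRCm38.p6, and the probe set that stands for each rose in newly made RNA. Fgf2 rose by 1.60 ± 0.22 (SE; limma adjusted p = 0.000216) and Nudt6, a nudix hydrolase gene named after its values were seen, by 1.64 ± 0.22 (0.000153). Nudt6 was at 8.0, 9.16 and 8.98 on TGF-b1 arrays and at 6.94, 7.16 and 7.12 on control arrays. The next probe set of Nudt6 went the other way, with a change of −0.44 that was not called (limma adjusted p = 0.0907). In both genes TGF-b1 array 1 was the lowest of its group and the groups did not overlap. In total RNA the changes were 0.10 for Fgf2 and 0.54 for Nudt6 (limma adjusted p = 0.951 and 0.375), and the differences between the kinds of RNA, 1.5 and 1.11, were not called (0.164 and 0.709). Which strand each probe set reads was not tested.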
